A study of Mus musculus with 6 samples.

Results

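Genes of the AP-1 and EGR transcription factor families and the immediate early gene Ier2 were followed in the sciatic nerve of Srebf-1c knockout (KO) mice and their wild-type littermates. The 10 genes were Fos, Fosb, Fosl1, Fosl2, Junb, Jund, Egr1, Egr3, Atf3 and Ier2. They were chosen by name with earlier results of these arrays known. Their differences between genotypes are therefore given as a description, without a test. A gene was measured through probe sets annotated with its symbol alone, and where several existed the brightest on average was used. By this rule 9 of the 10 had a value, among 22180 genes with a value in all. The single probe set annotated to Fosl1 also carries the symbol of its genomic neighbour Ccdc85b, so Fosl1 has no value here.

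Total RNA came from whole sciatic nerve, a large mixed nerve of the leg, of mice aged 10 months. The groups were wild type and Srebf-1c KO, with 3 samples each and 1 Affymetrix whole-transcript array per sample. Srebf-1c is the form of the Srebf1 product known for driving fatty acid synthesis genes. The labels name no Cre, transgene or treatment, do not state the sex or strain background, and do not say that each sample came from a separate mouse, so the spread between samples may be partly technical. One label field, the sample source, calls the KO samples wild type too; titles and the genotype entry both say KO, and groups were taken from the titles.

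AP-1 is a dimer of basic leucine zipper proteins: FOS family members pair with JUN family members and bind DNA, while ATF3 can pair with JUN proteins or with itself. EGR proteins bind GC-rich sites through zinc fingers and are held in check by the corepressors NAB1 and NAB2. Many of these genes are switched on within minutes by growth factor, calcium or stress signals that act through MAP kinases, SRF with its ELK partners, and CREB, which is why they are called immediate early genes. In peripheral nerve, JUN and ATF3 are known for the response of Schwann cells and neurons to axon injury, and EGR2, also called KROX20, is the factor that Schwann cells need to make myelin. The time between death and lysis of the nerve, which can matter for genes of this speed, is not given in the sources used here.

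Values are RMA intensities on a linear scale, arbitrary units that follow transcript abundance within a probe set. Median intensity of the arrays ran from 115.5 to 123. Srebf1 checked the labels: its log2 intensity was 9.59 ± 0.10 (SD, n = 3) in wild type and 8.07 ± 0.04 (SD, n = 3) in KO. It was the 1 gene of 22180 (0.00451%) past an adjusted p of 0.05 in limma (log2 fold change -1.52 ± 0.11, SE, adjusted p = 0.0497). With the arrays brought to 1 median, or without any 1 of the arrays other than KO replicate 2, no gene passed. Of the markers of myelinating Schwann cells, 7 of 10 were measured, all between the 88.8th and 99.9th percentile of intensity over genes.

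Of the 9 measured genes, 8 had a lower mean in KO and Fosb had a higher one, where 56.9% of all genes had a lower mean. The median log2 fold change (KO minus wild type) of the 9 was -0.17, beside -0.03 over all genes. Atf3 and Egr1 differed most. In these 2 the 3 KO values lay below the 3 wild-type values, as they did in 8.21% of all genes. The same 2 genes had at least 1.5-fold lower means in KO, where 0.965% of all genes did. Both shares come from the contrast with which the genes were chosen, so nothing is read from them. Changes in the number of cells of a type and in RNA per cell cannot be told apart in such bulk tissue.

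**Figure D1:**
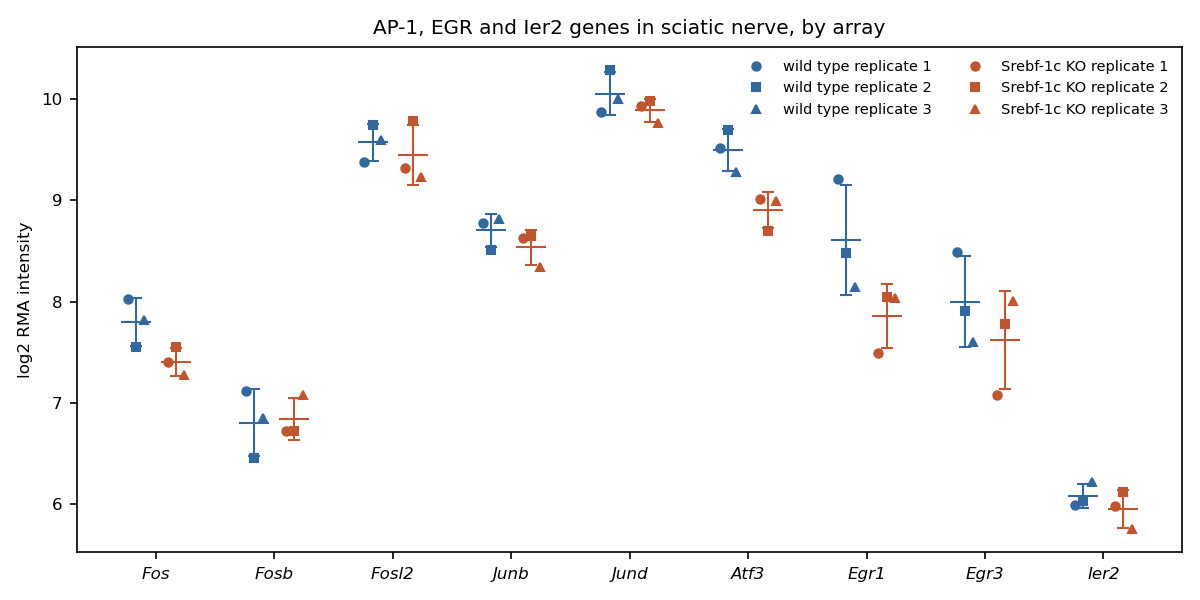
Log2 RMA intensity of the 9 measured genes on each array, wild type in blue and Srebf-1c KO in orange, with the replicate number as the symbol, a horizontal bar for the mean and whiskers for the SD (n = 3). The KO points of Atf3 and Egr1 lie below all wild-type points, and those of the other 7 genes overlap or touch them.

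In the FOS family, Fos itself, the prototype partner in AP-1, had intensities of 261, 187 and 226 in wild-type replicates 1 to 3 and of 169, 187 and 155 in KO replicates 1 to 3. The groups touched without crossing, since wild-type replicate 2 and KO replicate 2 held the same value, and KO replicates 1 and 3 were lower than all of wild type. The log2 fold change of Fos was -0.39 ± 0.16 (SE), or 0.763 of the wild-type level. Fosb, a close relative of Fos that is also known for a short, stable splice form, had intensities of 139, 87.6 and 115.5 in wild type and of 105.5, 106 and 135 in KO. Its KO values all lay within the wild-type range, and the log2 fold change was 0.03 ± 0.20 (SE). Fosl2, which encodes FRA2 and is the slower member of the family, had intensities of 666, 854 and 774 in wild type and of 637, 882 and 600.05 in KO. KO replicate 2 was its highest array and the other 2 KO arrays its lowest, and the log2 fold change was -0.13 ± 0.18 (SE).

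In the JUN family, Junb, a JUN relative that can oppose JUN, had intensities of 439, 365 and 449 in wild type and of 394, 399 and 324 in KO. Only KO replicate 3 lay below the wild-type range of Junb, and the log2 fold change was -0.17 ± 0.15 (SE). Jund, the member known for its steady level in resting cells, had intensities of 937, 1246 and 1020.4 in wild type and of 971, 1007 and 866 in KO. KO replicate 3 was again the 1 array below the wild-type range, and the log2 fold change was -0.16 ± 0.15 (SE). Jund has a further, dimmer probe set, and it gave the same log2 fold change of -0.16.

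Atf3, a stress-induced factor that can repress or activate with its JUN partners, had intensities of 729, 825 and 621 in wild type and of 515, 414 and 509.7 in KO. The highest KO array lay below the lowest wild-type array, so the groups did not overlap. The KO mean was 0.662 of the wild-type level, a log2 fold change of -0.59 ± 0.16 (SE), against SDs of 0.21 in wild type and 0.18 in KO on the log2 scale. With each array left out in turn it ran from -0.70 to -0.49.

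Egr1, the zinc finger factor that mitogens and depolarisation induce, had intensities of 590.3, 356 and 283 in wild type and of 181, 264 and 263 in KO. The groups did not overlap, but the gap was narrow: 283 in wild-type replicate 3 against 264 in KO replicate 2. The KO mean was 0.595 of the wild-type level, a log2 fold change of -0.75 ± 0.29 (SE). The wild-type SD of 0.54 on the log2 scale came largely from replicate 1, which lay 0.73 above the next array. Without it the log2 fold change of Egr1 was -0.45. Leaving out KO replicate 1 gave -0.57 and leaving out wild-type replicate 3 gave -0.98. Egr3, a relative that is induced by the same signals, had intensities of 358, 239 and 194 in wild type and of 135, 219 and 257 in KO. Wild-type replicate 1 was again highest and KO replicate 1 lowest, and the other 4 arrays were mixed. The log2 fold change of Egr3 was -0.38 ± 0.30 (SE), and leaving out wild-type replicate 1 or KO replicate 1 brought it to -0.13 or -0.11.

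Ier2, an immediate early gene of neither family, had intensities of 63.9, 65.4 and 74.55 in wild type and of 63.25, 69.9 and 53.9 in KO. This was a dim probe set, in the 26.0th percentile of intensity. The groups overlapped, and the log2 fold change was -0.13 ± 0.14 (SE). Single arrays moved the differences of Egr1 and Egr3, given above, by over 1.5 times, and also the small ones of Fosb, Fosl2, Junb, Jund and Ier2. Fosb ran from -0.14 without wild-type replicate 2 to 0.19 without wild-type replicate 1, with -0.08 without KO replicate 3. Fosl2 ran from -0.30 without KO replicate 2 to -0.02 without KO replicate 3, with -0.22 and -0.04 without wild-type replicates 1 and 2 and -0.06 without KO replicate 1. Junb ran from -0.26 without wild-type replicate 2 to -0.07 without KO replicate 3, with -0.11 without wild-type replicate 3. Jund ran from -0.25 without wild-type replicate 1 to -0.05 without wild-type replicate 2, with -0.10 without KO replicate 3. Ier2 ran from -0.21 without KO replicate 2 to -0.03 without KO replicate 3, with -0.06 without wild-type replicate 3.

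**Figure D2:**
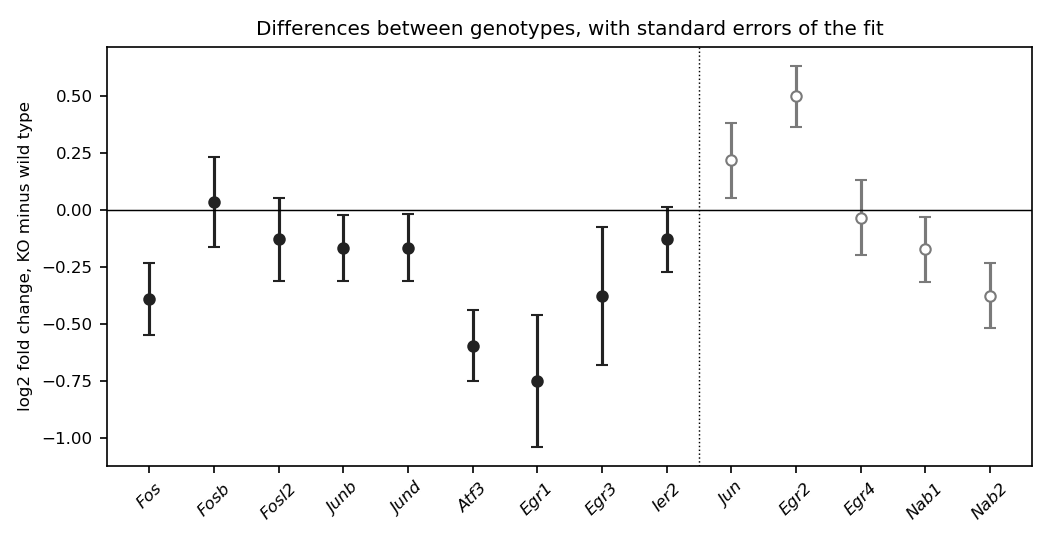
Log2 fold change (KO minus wild type) with its standard error from limma for the 9 measured genes (filled) and, right of the dotted line, for 5 further AP-1, EGR and NAB genes (open). Egr1 at -0.75 and Atf3 at -0.59 are lowest, and Egr2 at 0.50 is highest.

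Across arrays the 9 genes did not share 1 order. Their highest value fell on wild-type replicate 1 in 4 genes (Fos, Fosb, Egr1 and Egr3; this array was highest for 22.3% of all genes), on wild-type replicate 2 in 2 (Jund and Atf3), on wild-type replicate 3 in 2 (Junb and Ier2) and on KO replicate 2 in 1 (Fosl2). The lowest value fell on KO replicate 3 in 5 (Fos, Fosl2, Junb, Jund and Ier2), where 16.6% of all genes had their lowest value, and on KO replicate 1 in Egr1 and Egr3. The widest spread was that of Egr1, with 3.27-fold between the highest and the lowest array, and the narrowest that of Ier2 at 1.38-fold. The median over all genes was 1.46-fold. Averaged over the 9 genes, the log2 deviation from the 6-array mean was highest on wild-type replicate 1 at 0.29, followed by 0.10 and 0.06 on wild-type replicates 2 and 3. KO replicates 1 to 3 stood at -0.25, -0.05 and -0.15.

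Scores of cell type markers also differed between arrays. The neuron list had 7 of 8 markers measured, and its score, the mean log2 deviation of its genes, stood at 0.65, -0.28 and -0.57 on wild-type replicates 1 to 3 and at -0.39, 0.21 and 0.37 on KO replicates 1 to 3. Within each genotype the arrays ranked by this score as they did by Egr3, but not as they did by the other measured genes. Egr1 had the same order in wild type but stood at 264 and 263 on KO replicates 2 and 3. The part of neurons in these values was not tested. The vesicle fusion gene Snap25 had an intensity of 3171 in wild-type replicate 1 against 893 and 709 in replicates 2 and 3, and of 857, 2114 and 2169 in KO. The summed intensity of the neuron list ran from 1865 to 6676 in wild type and from 2209.9 to 4882 in KO. The sensory neuron factor Isl1 was dim, in the 27.6th percentile. With the neuron score as a covariate, which was added once the data had been seen, the log2 fold change was -0.85 for Egr1, -0.48 for Egr3, -0.41 for Fos and -0.60 for Atf3.

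The endothelial score, over 9 of 9 markers, was lowest in KO replicate 3 at -0.48 and highest in wild-type replicate 3 at 0.37. Its summed intensity ran from 7625 to 10805 in wild type and from 6268 to 9821 in KO. KO replicate 3 was the lowest array for 5 of the 9 genes, and the part of endothelial cells in this was not tested. The neutrophil list, with 8 of 8 markers measured, stood at 1.30 in wild-type replicate 3 and between -0.35 and -0.05 elsewhere. Its summed intensity ran from 538 to 1765 in wild type and from 539 to 583 in KO. Junb and Ier2 were highest on that array, and the part of neutrophils in their values was not tested. Adipocyte scores, over 11 of 12 markers, were 1.46 in wild-type replicate 3 and 1.35 in KO replicate 2 and ran from -0.90 to -0.41 on the other 4 arrays. The muscle score, over 12 of 12 markers, was highest in wild-type replicate 1 at 0.75 and in KO replicate 1 at 0.63. Its summed intensity ran from 40568 to 102426 in wild type and from 56447 to 92948 in KO. Egr1 and Egr3 were highest on the first of these arrays and lowest on the other, and the part of muscle in their values was not tested.

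**Figure D3:**
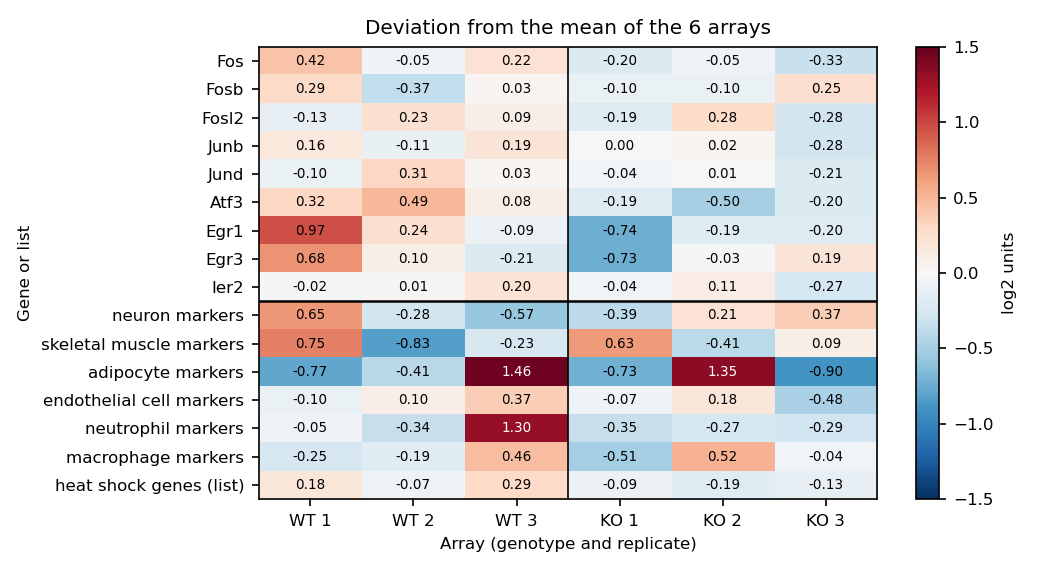
Deviation of log2 intensity from the mean of the 6 arrays (colour and printed value, log2 units) for the 9 genes, and the mean of the same over cell type marker lists and heat shock genes, by genotype (WT, wild type) and replicate. On wild-type replicate 1 Egr1 stands at 0.97, Egr3 at 0.68, the muscle markers at 0.75 and the neuron markers at 0.65.

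The RefSeq tables (GRCm38.p6) held the start of 6 of the 10 genes. The 250 bases before the start are shown for Atf3, which was lower on all KO arrays, and for Fos, Fosb and Junb, whose groups touched or overlapped. Signal-response sites can be compared within this stretch only. Capitals mark the cyclic AMP response element (CRE) core TGACG on either strand, which is also part of the full CRE, and the EGR site GCGNGGGCG. The 4 windows shown are those of the 6 that held a CRE core. The windows of Fosl2 and Jund, whose groups also overlapped, held no CRE core and are not shown.
Atf3, chr1:191183334-191183583, minus strand: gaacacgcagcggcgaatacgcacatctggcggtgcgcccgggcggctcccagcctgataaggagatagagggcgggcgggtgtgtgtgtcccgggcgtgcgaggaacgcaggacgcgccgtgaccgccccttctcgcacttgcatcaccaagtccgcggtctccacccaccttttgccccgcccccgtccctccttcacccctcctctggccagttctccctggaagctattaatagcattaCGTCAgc
Fos, chr12:85473640-85473889, plus strand: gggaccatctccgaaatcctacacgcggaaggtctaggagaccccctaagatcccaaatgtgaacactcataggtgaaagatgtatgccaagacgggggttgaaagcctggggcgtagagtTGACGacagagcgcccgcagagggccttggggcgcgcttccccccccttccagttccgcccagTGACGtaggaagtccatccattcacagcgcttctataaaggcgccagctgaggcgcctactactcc
Fosb, chr7:19310046-19310295, minus strand: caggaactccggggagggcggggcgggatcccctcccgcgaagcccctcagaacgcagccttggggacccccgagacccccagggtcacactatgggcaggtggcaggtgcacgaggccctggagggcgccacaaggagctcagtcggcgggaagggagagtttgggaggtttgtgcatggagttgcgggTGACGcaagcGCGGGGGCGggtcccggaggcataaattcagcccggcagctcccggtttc
Junb, chr8:84978749-84978998, minus strand: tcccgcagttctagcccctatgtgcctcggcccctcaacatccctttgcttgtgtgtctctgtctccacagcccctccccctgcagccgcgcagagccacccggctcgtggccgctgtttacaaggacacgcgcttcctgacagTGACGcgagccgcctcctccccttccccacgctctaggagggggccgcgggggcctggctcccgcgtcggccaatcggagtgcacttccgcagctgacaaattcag

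Counting the base before the start as -1, Atf3 had its CRE core on the opposite strand at -7 to -3. Fos had it at -129 to -125 and at -66 to -62, Fosb at -60 to -56 and Junb at -106 to -102. Together 4 of the 6 windows held a CRE core, against 17.8% of all 32851 RefSeq windows of this length. The full CRE TGACGTCA was in 0 of the 6 windows and in 1.55% of all. The EGR site was in the windows of Fosb and Fosl2, the other 4 had none, and 4.7% of all windows held it. The AP-1 site TGANTCA (6.75% of all windows) and the CArG box that SRF binds (1.47%) were in none of the 6. Both strands were searched, within these 250 bases only. A site further upstream or past the start would not be seen, so these promoters are not shown to lack one. Among the windows of Egr2, which has several annotated starts, CArG matches were found, one of them ccatatatgg at -72 to -63 of one start.

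The remaining genes of the pathway were taken from 7 lists of 130 genes by textbook role, of which 117 were measured. None passed an adjusted p of 0.05 in limma, 11 had an unadjusted p under 0.05 (5.83% of all genes did), and 2 met the criterion of the study, an unadjusted p under 0.05 and at least 1.5-fold change. This was 1.71% of the 117, beside 1.19% of all genes. Both were heat shock genes and lower in KO, a direction in which 0.555% of all genes met it. The count was 5 without wild-type replicate 2 or without KO replicate 2 and 1 without KO replicate 3. Means were lower in KO for 79 of the 117, where 56.9% of all genes had a lower mean. The median log2 fold change was -0.11, beside -0.03 over all genes. The lists were written with earlier results of these arrays known.

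In the EGR family outside the 9 genes, Egr2 had a higher mean in KO, where Egr1 and Egr3 had lower ones. The difference between these genes was not tested. It had intensities of 791, 977 and 795 in wild type and of 1283, 1132 and 1195 in KO, with no overlap, as in 4.08% of all genes for that direction. The log2 fold change was 0.50 ± 0.13 (SE), or 1.41-fold, which fell short of the 1.5-fold limit (unadjusted p = 0.00692, limma adjusted p = 0.850). Without wild-type replicate 2 it was 0.60 and met the criterion. Egr2 is also on the list of myelinating Schwann cell markers, and its other 6 measured members all overlapped between the groups. Log2 fold changes were 0.30 ± 0.18 (SE) for the tight junction gene Cldn19, 0.12 ± 0.14 for Mal, 0.08 ± 0.19 for Mag, 0.07 ± 0.12 for Pmp22, -0.03 ± 0.11 for Mbp and -0.16 ± 0.16 for Pllp. The score of the 7, Egr2 included, stood at -0.21, 0.14 and -0.12 on wild-type replicates 1 to 3 and at 0.12, -0.05 and 0.12 on KO replicates 1 to 3. Their summed intensity ran from 33059 to 40522 in wild type and from 36370.2 to 40213 in KO, and the part of Schwann cell content in the Egr2 values was not tested. Egr4, the family member best known from neurons, stood at -0.03 ± 0.17. Nab2, the corepressor gene that EGR proteins themselves induce, had intensities of 1037, 1345 and 1045 in wild type and of 849.8, 847 and 928 in KO. The groups of Nab2 did not overlap, and the log2 fold change was -0.38 ± 0.14 (SE, unadjusted p = 0.0326, limma adjusted p = 0.850). A dimmer probe set of Nab2 gave 0.19, and the mean of both gave -0.09. Nab1 stood at -0.17 ± 0.14.

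Among the other AP-1 partners, 11 of 12 were measured, 6 with a higher and 5 with a lower mean. Of these 0 met the criterion of the study (1.19% of all genes did). An unadjusted limma p under 0.05 was held by 0 of them and by 5.83% of all genes. Jun, the main partner of Fos and the driver of the repair state of Schwann cells, had intensities of 834, 831 and 1105 in wild type and of 1168, 1125 and 918 in KO. The groups of Jun overlapped, with a log2 fold change of 0.22 ± 0.17 (SE). Batf3, a factor of dendritic cells, stood at -0.29 ± 0.12 and Maff, a small MAF protein gene, at 0.28 ± 0.17.

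Of 40 other immediate early genes, all measured, 25 had a lower mean and 15 a higher one, near the 56.9% of all genes with a lower mean. Their median log2 fold change was -0.06, beside -0.03 over all genes. By limma 0 met the criterion (1.19% of all genes did) and 6 had an unadjusted p under 0.05, where 5.83% of all genes did. Ier5, a relative of Ier2, had intensities of 197, 183 and 202 in wild type and of 149, 125 and 137 in KO, with no overlap and a log2 fold change of -0.50 ± 0.12 (SE, adjusted p = 0.850). Pim1, a kinase gene induced by cytokines, stood at -0.48 ± 0.16, but its dimmer probe set gave 0.05 and the mean of both -0.22. Sgk1, a kinase gene induced by glucocorticoids and serum, had a higher mean in KO. It had intensities of 958, 1022 and 1358 in wild type and of 1668, 1612 and 1552 in KO, with no overlap and a log2 fold change of 0.55 ± 0.16 (SE, adjusted p = 0.850). Pim1 met the criterion without wild-type replicate 2 (-0.59) and Sgk1 without wild-type replicate 3 (0.70).

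Upstream of the 9 genes, 24 of 30 kinases, SRF and CREB factors and cofactors were measured. Of these 16 had a lower mean, where 56.9% of all genes did, and 0 had an unadjusted limma p under 0.05 (5.83% of all genes did). Srf stood at -0.34 ± 0.22 (SE), its partner Elk1 at -0.23 ± 0.14 and the kinase gene Map2k4, which acts above JNK, at 0.24 ± 0.13. Of 22 target genes of AP-1 and EGR factors 18 were measured. Their means were lower in KO in 16, where 56.9% of all genes had a lower mean. The median log2 fold change of the targets was -0.23, beside -0.03 over all genes. An unadjusted limma p under 0.05 was held by 0 of them and by 5.83% of all genes. The score of the targets, their mean log2 deviation, stood at 0.01, 0.06 and 0.25 on wild-type replicates 1 to 3. On KO replicates 1 to 3 it stood at -0.25, 0.11 and -0.19, so the groups overlapped. The cytokine gene Il6 stood at -0.45 ± 0.20 and was dim, in the 3.11th percentile, the cyclooxygenase gene Ptgs2 at -0.43 ± 0.22 and the hyaluronan receptor gene Cd44 at -0.33 ± 0.17. Il6 (-0.59) and Ptgs2 (-0.60) met the criterion without KO replicate 2. With 16 added to each intensity before log2, Il6 stood at -0.19 and Ptgs2 at -0.35. The 1 target without overlap of the groups was the tissue factor gene F3, with a higher mean in KO at 0.38 ± 0.22. Over all genes, 4.08% had no overlap in that direction. F3 had intensities of 1052, 1261 and 1218 in wild type and of 1291, 2151 and 1277 in KO. The gap was narrow, and KO replicate 2 stood far above the other arrays. Of 10 repair Schwann cell genes 9 were measured and none had an unadjusted p under 0.05 in limma, where 5.83% of all genes did. Ngfr, the low-affinity neurotrophin receptor gene, stood at -0.26 ± 0.14, Sox2 at 0.34 ± 0.22 and Bdnf at -0.12 ± 0.12.

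The heat shock list, of genes that like Atf3 respond to cell stress, had 11 of 12 genes measured. A lower mean in KO was seen in 9, where 56.9% of all genes had one, and the median log2 fold change was -0.20, beside -0.03 over all genes. The inducible chaperone gene Hspa1a had intensities of 683, 463 and 868 in wild type and of 443, 318 and 351 in KO, with no overlap and a log2 fold change of -0.82 ± 0.25 (SE, unadjusted p = 0.0120, limma adjusted p = 0.850). It has a near-identical neighbour, Hspa1b, whose transcripts its probes may share, and it missed the criterion with the unmoderated test that the study names. The value of Hspa1b itself was -0.32 ± 0.29, with intensities of 487, 449 and 973 in wild type and of 475, 444 and 519 in KO, which overlapped. Hsph1, a chaperone of the same family, had intensities of 821, 522 and 585 in wild type and of 442, 422 and 372 in KO and a log2 fold change of -0.62 ± 0.19 (SE, unadjusted p = 0.0127, limma adjusted p = 0.850). Hsph1 missed the criterion without wild-type replicate 1 (-0.43) or KO replicate 3 (-0.55) and after repeated quantile normalization (-0.55). Dnajb1, a cochaperone gene, stood at -0.47 ± 0.14.

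**Figure D4:**
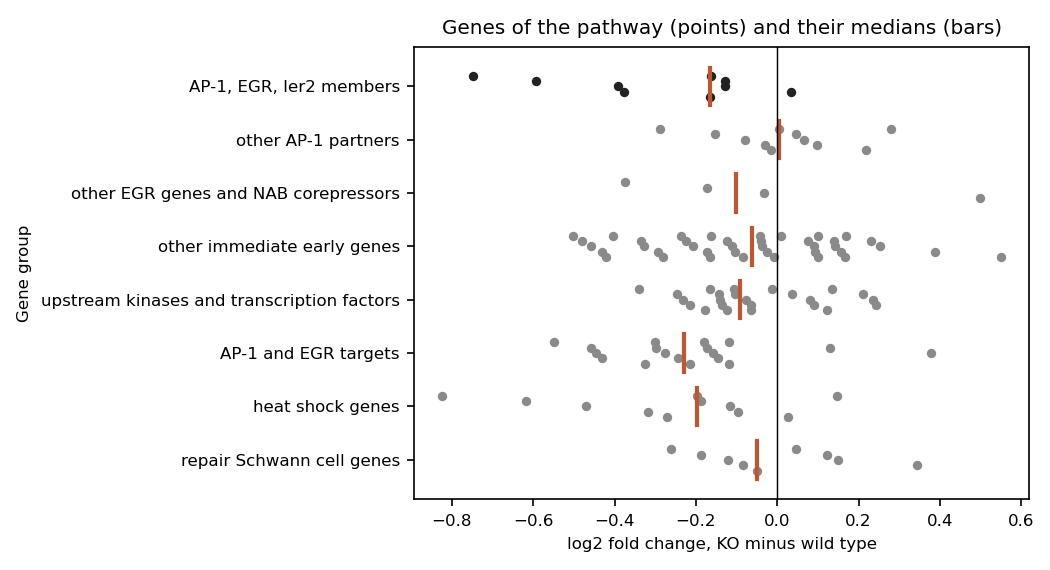
Log2 fold change (KO minus wild type) of each measured gene (points, spread vertically for display) of the AP-1, EGR and Ier2 group and of the 7 pathway lists, with the median of each as an orange bar. Medians run from -0.23 for the AP-1 and EGR targets to 0.0046 for the other AP-1 partners.

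The genes most like the mean profile of the 9 over the 6 arrays were sought among 10509 genes of at least median intensity. By Pearson correlation over the 6 arrays, given as a description, these were Pqbp1, a polyglutamine-binding protein gene of splicing (0.991), Utp14a, which acts in ribosome assembly (0.982), Slc25a44, a mitochondrial carrier gene (0.980), Synrg, of clathrin-coated vesicle traffic (0.980), and Trpm4, a calcium-activated cation channel gene (0.979). All 5 were also lower in KO, with log2 fold changes from -0.44 to -0.16. With 6 arrays and so many genes ranked, high values are common, and the arrays share their genotype difference.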

How the data were processed

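The authors deposited probe set intensities that, per the series' design text in the labels, were made with TAC and Partek software by the Robust Multichip Average (RMA: background correction, normalization across arrays, summary of the probes of a set). The size of the values shows a linear scale. The submitters' processing notes name the build mm 8 and no versions. No array coordinates are printed.

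Of 41077 probe sets, 23521 carried 1 gene symbol in the platform annotation and 23328 of these matched RefSeq by Entrez identifier. Log2 was taken with no pseudocount, the brightest probe set stood for a gene, and dim genes were kept, which gave 22180 genes. KO minus wild type was fitted with limma 3.58.1 (lmFit, eBayes) in R 4.3.3, two-sided, with Benjamini-Hochberg adjustment over all genes. The fit was tested on simulated data. Members and lists were chosen with earlier results of these data known, so members have no test. Named pathway genes were the 3 with the smallest p of each list plus Jun, Egr2 and Egr4, and others named (F3, Hspa1b, Snap25, Isl1, Schwann cell markers) were chosen after their values were seen. The number of arrays limits the precision. The labels do not say that replicate numbers pair the samples, and the main fit used no pairs. Deviations from group means correlated at 0.12, 0.012 and -0.23 for numbers 1 to 3, which cannot show whether samples were paired. Alternatives changed 1 choice at a time. Figures used matplotlib 3.10.9 and tables pandas 2.3.3.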

Additional observations from a re-analysis of the deposited data

How the results depend on the processing

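With 3 arrays a group, 1 array can move a value. Of the 9 genes, 8 kept a lower mean in KO under every alternative that measured them, and Fosb turned in 3 of 16. The number of the 9 higher in KO was 1, and 0 with the neuron score as a covariate (added after seeing the data). With each array left out it ran from 0 to 1. Leaving out the dimmest 50% of genes removed Fosb and Ier2, and 0 of the 7 kept were higher in KO. The median log2 fold change of these 7 was -0.38, beside -0.06 over all genes kept, with the value of each gene unchanged. That of the 9 ran from -0.30 to -0.10 with each array left out. Egr4 turned to 0.019 and 0.032 without wild-type replicates 1 and 3 and to 0.042 and 0.021 without KO replicates 1 and 3, in a range of -0.16 to 0.042. Genes past an adjusted p of 0.05 numbered 0 with the replicate block, the methods' ANOVA, quantile normalization, arrays at 1 median or the neuron covariate, and 0 to 1 with an array left out. Genes meeting the criterion of the study numbered 265 (142 higher, 123 lower), 288 with the replicate block, 138 with the ANOVA, 150 and 89 without the dimmest 25% and 50%, 139 with a pseudocount of 16, 34 at a fold limit of 2 and 231 to 552 with an array left out. With arrays at 1 median 188 were higher and 101 lower. Pathway genes meeting it numbered 1 with the ANOVA or quantile normalization, 0 at a fold limit of 2 and 1 to 5 with an array left out. The cause of these shifts was not tested. The counts without dim genes are out of 16635 and 11090 genes, so they do not share a base with the 265.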
